A study of Mus musculus with 16 samples.

Results

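The cell cycle genes described here are 43 genes of mitosis, of the cyclins with their kinases, and of the mitotic spindle, followed in mouse embryonic hearts of 5 genotypes. Members were taken by gene name: every beadchip probe annotated to a listed gene, by current symbol or synonym, counted if it was detected on at least 2 arrays. This gave 49 probes for 31 of the 43 genes, out of 14058 probes for 9695 named genes in the whole series. No probe was named in the tables used here for 10 listed genes (Ccnb1, Ccnb2, Cdk4, Cdk6, Aurkb, Bub1, Cenpe, Cenpf, Kif20a and Mki67), so these were not analysed here. Cdkn1b and Cdkn2c each had 1 probe, above background on fewer than 2 arrays, and were left out. Of the 31 measured members, 30 were above background on all 16 arrays with their brightest probe and Ccna2 on 15 of them.

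Cells enter division when cyclin D and cyclin E, bound to their cyclin-dependent kinases (CDKs), release E2F transcription factors from the retinoblastoma protein and start DNA synthesis. Cyclin A and cyclin B with CDK1 then carry the cell into mitosis, once CDC25 phosphatases have removed inhibitory phosphates from the CDKs. Polo and Aurora kinases build the spindle, the spindle checkpoint holds anaphase until all chromosomes are attached, and CDC20 with the anaphase-promoting complex ends mitosis by marking cyclin B and securin for destruction. CDK inhibitors such as p57, made from Cdkn1c, hold cells out of the cycle. In the embryonic heart, cardiomyocytes divide while they contract, and myocardial proliferation is known to depend on Notch and Wnt signals.

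The study addressed how Notch signalling through Rbpj, the DNA-binding partner of all Notch receptors, and Wnt signalling through Axin2, a brake on beta-catenin, act in the forming heart. Whole hearts were taken at E9.25 (embryonic stage, 22 to 24 somites) from a mixed C57/BL6 and 129Ola background. KO hearts (3 arrays) carried MesP1-cre with RBPJlox/lox. DKO hearts (4 arrays) carried MesP1-cre, RBPJlox/lox and Axin2-/-, and DKOhet hearts (2 arrays) MesP1-cre, RBPJlox/lox and Axin2+/-. The hetDKO hearts (3 arrays) carried MesP1-cre, RBPJlox/+ and Axin2-/-, so 1 Rbpj copy was floxed in them too, and the control hearts (4 arrays) are labelled wild type, with no word on whether they carried the Cre. MesP1-cre acts in the early mesoderm that gives rise to most heart cells, so descendants of other lineages in the heart keep Rbpj. The labels do not tie the Axin2 alleles to the Cre. The labels do not say whether arrays hold separate embryos, litters or pools, so the p-values measure the spread between arrays, which may be technical in part. KO, DKO and DKOhet hearts are called Rbpj-deleted below (9 arrays) and hetDKO and control hearts Rbpj-present (7 arrays). No probe was named for Rbpj or Axin2 in the tables used here, so the targeted genes did not check the labels.

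The arrays detected 12360 to 13196 probes each, with median intensities of 171 to 211.65 before normalization, and correlated with each other between 0.957 and 0.990 over all kept probes. They lay on 2 beadchips, and every group but DKOhet, which is on beadchip 2 alone, had arrays on both. All levels are log2 signals after background correction and quantile normalization, so a difference of 1 is a doubling. Levels of different genes come from different probes and are not set against each other. A difference was called where its adjusted p, from limma over all 14058 probes, was under 0.05. Each gene is given by its brightest probe, also in counts of members, and its other probes are given where their call or sign differs.

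Rbpj-deleted hearts had lower signal of both cyclin E genes, of the spindle checkpoint gene Bub3 and of the CDK inhibitor gene Cdkn1c than Rbpj-present hearts, and smaller decreases in 6 genes of S phase entry, mitosis and mitotic exit. Top2a, the topoisomerase of chromosome segregation, went the other way. In all, 10 of the 31 measured members were lower and 1 was higher past the test, and 20 did not pass. Over all probes of the array, 14.3% were called lower and 12.2% higher in this comparison, or 26.4% in either direction, against 32.3% lower and 3.23% higher among the members. These shares are of unlike probes. The median standard deviation within groups was 0.18 for the members' brightest probes and 0.23 over all probes. The members were also chosen with earlier results of these data known. The median difference was -0.10 over the 31 members and -0.02 over all probes, and 23 of 31 members lay below 0. In these bulk hearts, fewer dividing cells, less RNA per dividing cell and a changed mix of cell types cannot be told apart. The count of 11 called members was 7 without DKOhet 2 and 7 without both DKOhet arrays, an alternative chosen after seeing the data. It was 5 among the beadchip 1 arrays alone and 0 among the beadchip 2 arrays alone, where 16.9% and 1.10% of all probes were called.

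**Figure D1:**
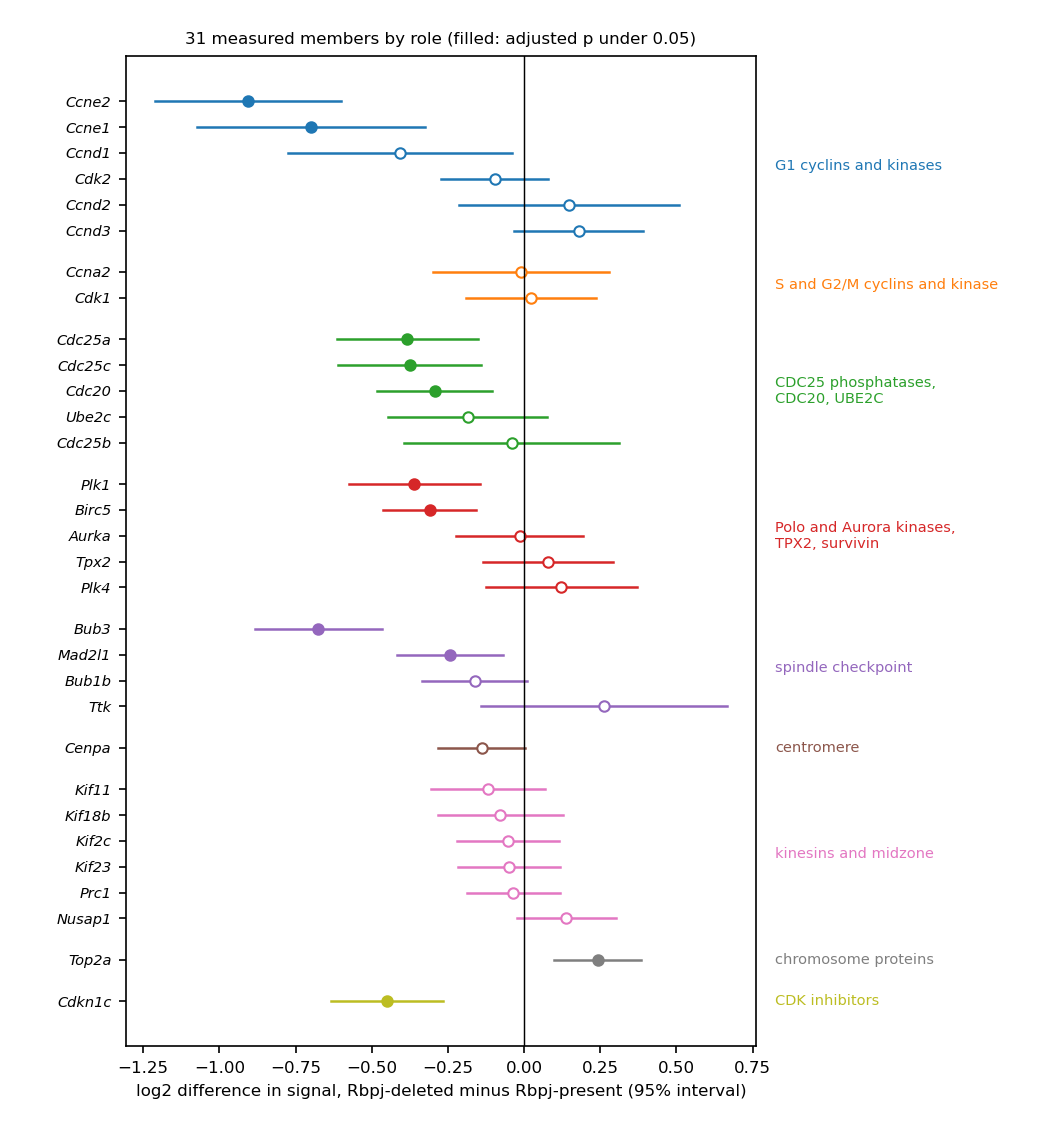
Log2 difference in signal between Rbpj-deleted and Rbpj-present hearts for the 31 measured members (x axis, points with 95% intervals), grouped by role down the page, with filled points for adjusted p under 0.05. Ccne2, Ccne1 and Bub3 lie farthest left, at -0.91, -0.70 and -0.68, Top2a is the filled point right of 0, at 0.24, and the 6 kinesin and midzone genes are all open.

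The promoters of 6 members are printed, from genes called lower (Bub3, Cdc25a, Cdc20, Plk1), called higher (Top2a) and not called (Cdk1). A link between promoter sequence and the direction of change was not tested. Each line holds the 150 bases that end at the annotated transcription start in RefSeq on GRCm38.p6, 5′ to 3′ on the gene's own strand, and capitals mark matches to motifs of cell cycle promoters. The stretches are chr7:131560220-131560369 on the plus strand for Bub3, chr9:109875429-109875578 on the plus strand for Cdc25a, chr4:118437344-118437493 on the minus strand for Cdc20, chr7:122159285-122159434 on the plus strand for Plk1, chr11:99024190-99024339 on the minus strand for Top2a and chr10:69352913-69353062 on the minus strand for Cdk1.
Bub3: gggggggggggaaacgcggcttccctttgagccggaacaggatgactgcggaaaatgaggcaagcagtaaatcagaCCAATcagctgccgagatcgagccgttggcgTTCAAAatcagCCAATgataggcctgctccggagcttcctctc
Cdc25a: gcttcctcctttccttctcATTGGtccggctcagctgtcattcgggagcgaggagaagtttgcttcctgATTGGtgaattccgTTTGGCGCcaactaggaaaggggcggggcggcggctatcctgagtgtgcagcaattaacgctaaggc
Cdc20: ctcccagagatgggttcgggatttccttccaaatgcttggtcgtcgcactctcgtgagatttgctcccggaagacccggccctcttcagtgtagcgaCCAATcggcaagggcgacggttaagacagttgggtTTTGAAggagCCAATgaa
Plk1: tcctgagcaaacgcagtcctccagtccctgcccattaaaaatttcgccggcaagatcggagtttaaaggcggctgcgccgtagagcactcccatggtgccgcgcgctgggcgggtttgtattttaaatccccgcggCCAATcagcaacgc
Top2a: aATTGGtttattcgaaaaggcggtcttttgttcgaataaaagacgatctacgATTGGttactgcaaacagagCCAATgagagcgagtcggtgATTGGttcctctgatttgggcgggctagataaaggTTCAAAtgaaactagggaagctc
Cdk1: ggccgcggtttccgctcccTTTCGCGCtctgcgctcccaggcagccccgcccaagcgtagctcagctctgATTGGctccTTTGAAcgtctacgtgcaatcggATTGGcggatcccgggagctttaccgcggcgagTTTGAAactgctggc

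The motifs were the cell cycle genes homology region (CHR, TTTGAA), which the MuvB complex binds in genes of late cell cycle, the CCAAT box (CCAAT), bound by NF-Y, and an E2F site in any of 4 spellings (TTTCCCGC, TTTGGCGC, TTTCGCGC or TTTGCCGC). Each was searched on both strands in windows of 300 bases, 250 before to 50 after the start. Of the 31 measured members, 24 had a window in the RefSeq table. Among the lower members, Ccne2, Cdc25c and Cdkn1c had none in it. A CHR stood in 15 of them (62.5%), a CCAAT box in 18 (75.0%) and an E2F site in 3 (12.5%), against 20.2%, 41.1% and 2.61% of 27025 genes with a window. Among the 7 lower members with a window, 3 had a CHR, 4 a CCAAT box and 1 an E2F site, and among the 16 that did not pass, 11, 13 and 2 did. The lower members Ccne1, Mad2l1 and Birc5, which are not printed, had a window with no match to any of these motifs. In Bub3 the CHR lies between 2 CCAAT boxes, at bases -43 to -38 before the start used for the printed stretch. From a second annotated Bub3 start it lies at -167 to -162. In Cdc20 the CHR ends 13 bases before the start. Cdk1, which did not pass, had 2 CHR copies and an E2F site, and Plk1 had its CHR 31 to 36 bases after the start, outside the stretch shown. No 2 matches share bases in the 6 promoters printed, and in the other members' windows only Ube2c had overlapping matches, 2 CCAAT boxes on opposite strands. A match is a stretch of letters and was not tested as a binding site.

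The G1 cyclins and kinases carried the largest decrease. Of 6 measured genes, 2 were lower, both cyclin E genes, and 4 did not pass. Ccne2 read 9.93, 9.14 and 9.55 in KO, 9.43, 10.11, 9.33 and 9.59 in DKO and 9.44 and 9.83 in DKOhet hearts, against 10.70, 10.15 and 10.68 in hetDKO and 10.38, 10.59, 10.47 and 10.55 in control hearts. All 9 Rbpj-deleted arrays lay below all 7 Rbpj-present arrays. Ccne2 encodes cyclin E2, which with CDK2 drives entry into S phase, and its difference was -0.91 (SE 0.14, 95% interval -1.21 to -0.60, adjusted p = 0.000483), a 1.88-fold lower signal. Ccne1 read 9.74, 10.76 and 9.67 in KO, 10.09, 10.48, 9.57 and 9.86 in DKO and 9.76 and 10.18 in DKOhet hearts, against 10.68, 10.71 and 10.58 in hetDKO and 10.84, 10.64, 10.47 and 11.10 in control hearts. For Ccne1, the gene of cyclin E1, KO 2 and DKO 2 reached into the range of the Rbpj-present arrays and the other 7 Rbpj-deleted arrays lay below it. Its difference was -0.70 (SE 0.17, interval -1.07 to -0.33, adjusted p = 0.00902), or 1.62-fold lower.

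The D cyclins, which link growth signals to CDK4 and CDK6, and Cdk2 did not pass with their brightest probes. Ccnd1 differed by -0.41 (interval -0.77 to -0.04, adjusted p = 0.0956), Ccnd2 by 0.15 (-0.21 to 0.51) and Ccnd3 by 0.18 (-0.03 to 0.39). Of the 2 other Ccnd1 probes, 1 was called lower at -0.35 (adjusted p = 0.0301) and the other was at -0.41 (adjusted p = 0.245), so the 3 probes had the same sign. Cdk2, the kinase partner of cyclin E, differed by -0.10 with its brightest probe (interval -0.27 to 0.08), while its 3 other probes were at -0.27 (adjusted p = 0.0616), -0.28 (adjusted p = 0.0352) and -0.57 (adjusted p = 0.00779). Thus 2 of the 4 Cdk2 probes were called lower and 2 were not. For Ccnd3 the other probes were at -0.18 and 0.17, neither called.

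**Figure D2:**
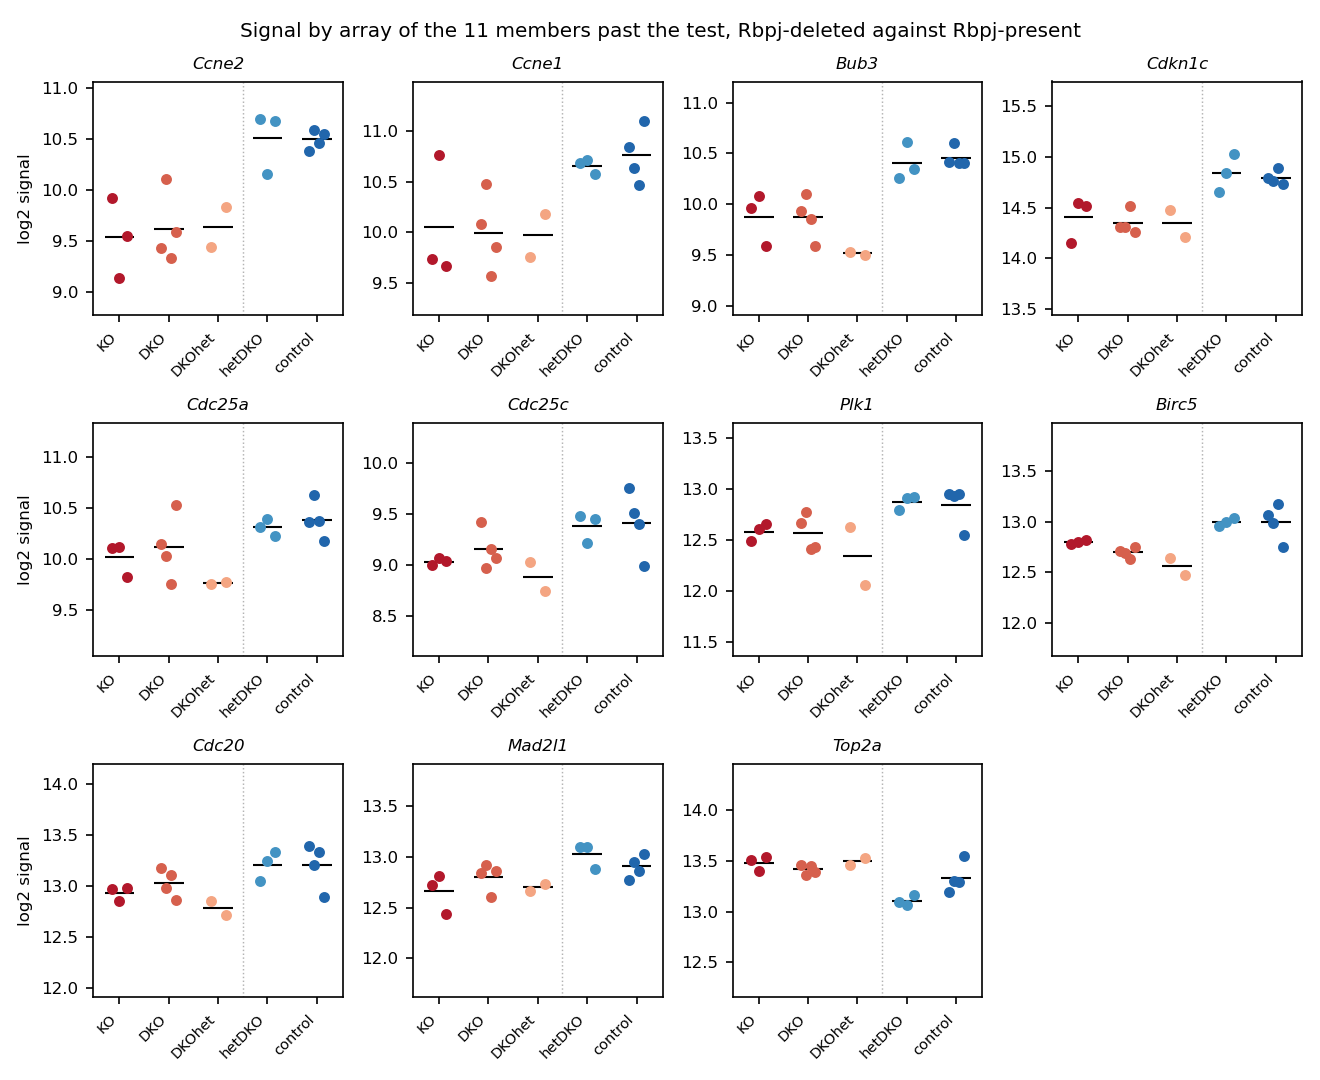
Log2 signal (y axis) of the 11 called members on each of the 16 arrays by genotype (x axis), with bars at group means and a dotted line between Rbpj-deleted and Rbpj-present genotypes. In Ccne2, Bub3 and Cdkn1c all Rbpj-deleted points lie below all Rbpj-present points, and in Plk1 and Birc5 control 4 is the lowest Rbpj-present point.

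Neither measured gene of the S and G2/M cyclins and kinase passed the test. Cdk1 read 13.21, 13.40 and 13.29 in KO, 13.49, 13.26, 13.48 and 13.29 in DKO and 13.33 and 13.62 in DKOhet hearts, against 13.46, 13.28 and 13.28 in hetDKO and 13.34, 13.11, 13.26 and 13.80 in control hearts. The arrays of the 5 genotypes overlapped throughout. Cdk1, the kinase that triggers mitosis, differed by 0.02 (SE 0.10, interval -0.19 to 0.24, adjusted p = 0.887). Ccna2, the gene of cyclin A2, differed by -0.01 (interval -0.30 to 0.28, adjusted p = 0.964). A second Cdk1 probe was called lower (adjusted p = 0.0323), but it was above background on 6 of 16 arrays and on no KO or DKOhet array, so it gives no size.

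Among the CDC25 phosphatases, which switch CDKs on, and the CDC20 and UBE2C factors of the anaphase-promoting complex, 3 of 5 genes were lower. Cdc25a read 10.10, 10.12 and 9.82 in KO, 10.14, 10.03, 9.76 and 10.53 in DKO and 9.75 and 9.77 in DKOhet hearts, against 10.32, 10.39 and 10.22 in hetDKO and 10.36, 10.63, 10.37 and 10.18 in control hearts. Only DKO 4 among the Rbpj-deleted arrays lay above the lowest Rbpj-present array, control 4. Cdc25a, which acts at S phase entry, differed by -0.38 (SE 0.11, interval -0.61 to -0.15, adjusted p = 0.0175). Cdc25c read 9.00, 9.07 and 9.03 in KO, 9.42, 8.97, 9.16 and 9.07 in DKO and 9.03 and 8.74 in DKOhet hearts, against 9.48, 9.22 and 9.45 in hetDKO and 9.76, 9.51, 9.40 and 8.99 in control hearts. Control 4 lay among the Rbpj-deleted arrays here, and DKO 1 among the Rbpj-present ones. Cdc25c, which acts at mitotic entry, differed by -0.38 (SE 0.11, interval -0.61 to -0.14, adjusted p = 0.0212), and its second probe by -0.32 (adjusted p = 0.0136). The call on the brightest Cdc25c probe was lost without DKOhet 2 (-0.33), without hetDKO 1 (-0.35) and without hetDKO 3 (-0.36), with adjusted p between 0.0525 and 0.0636.

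Cdc20 read 12.97, 12.86 and 12.98 in KO, 13.18, 12.98, 13.11 and 12.86 in DKO and 12.85 and 12.71 in DKOhet hearts, against 13.05, 13.25 and 13.34 in hetDKO and 13.40, 13.21, 13.33 and 12.89 in control hearts. The ranges overlapped, with control 4 near the low end of all arrays. Cdc20, the activator that turns the anaphase-promoting complex on at anaphase, differed by -0.29 (SE 0.09, interval -0.48 to -0.10, adjusted p = 0.0247), and its 3 other probes were called lower as well, at -0.30, -0.41 and -0.55. On the brightest probe the call was lost, at adjusted p from 0.0505 to 0.0706 and differences from -0.28 to -0.26, without any one of DKOhet 2, hetDKO 2, hetDKO 3, control 1 and control 3. Without both DKOhet arrays Cdc25a was at -0.28 (adjusted p = 0.101), Cdc25c at -0.31 (adjusted p = 0.0726) and Cdc20 at -0.23 (adjusted p = 0.106). Cdc25b differed by -0.04 (interval -0.39 to 0.31) and Ube2c, the ubiquitin-conjugating enzyme of the complex, by -0.19 (interval -0.45 to 0.07), and neither passed.

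Of the Polo and Aurora kinases with their spindle partners, 2 of 5 were lower. Plk1 read 12.49, 12.61 and 12.66 in KO, 12.67, 12.78, 12.41 and 12.43 in DKO and 12.63 and 12.06 in DKOhet hearts, against 12.79, 12.92 and 12.92 in hetDKO and 12.95, 12.93, 12.95 and 12.56 in control hearts. Control 4 fell within the range of the Rbpj-deleted arrays, and DKOhet 2 was the lowest of all. Plk1, the kinase that drives mitotic entry and spindle assembly, differed by -0.36 (SE 0.10, interval -0.58 to -0.15, adjusted p = 0.0166), and by -0.27 (adjusted p = 0.0579) without DKOhet 2. Birc5 read 12.78, 12.80 and 12.82 in KO, 12.71, 12.69, 12.64 and 12.75 in DKO and 12.64 and 12.48 in DKOhet hearts, against 12.96, 12.99 and 13.04 in hetDKO and 13.06, 12.99, 13.17 and 12.75 in control hearts. Apart from control 4, every Rbpj-present array was above every Rbpj-deleted array. Birc5, which encodes survivin of the chromosomal passenger complex, differed by -0.31 (SE 0.07, interval -0.46 to -0.16, adjusted p = 0.00563), and its 2 other probes by -0.44 and -0.39, both called. Plk4, the centriole duplication kinase, Aurka, the spindle pole kinase, and Tpx2, its activator, did not pass, at 0.12 (interval -0.13 to 0.37), -0.01 (-0.22 to 0.19) and 0.08 (-0.13 to 0.29).

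In the spindle checkpoint, which delays anaphase while kinetochores are unattached, 2 of 4 genes were lower. Bub3 read 9.96, 10.08 and 9.59 in KO, 9.94, 10.10, 9.85 and 9.59 in DKO and 9.53 and 9.50 in DKOhet hearts, against 10.26, 10.61 and 10.34 in hetDKO and 10.42, 10.60, 10.40 and 10.40 in control hearts. The highest Rbpj-deleted array, DKO 2 at 10.10, was below the lowest Rbpj-present array, hetDKO 1 at 10.26. Bub3, the WD-repeat protein that brings BUB1 and BUBR1 to kinetochores, differed by -0.68 (SE 0.10, interval -0.88 to -0.47, adjusted p = 0.00026), a 1.60-fold lower signal. Mad2l1 read 12.72, 12.81 and 12.44 in KO, 12.84, 12.92, 12.60 and 12.86 in DKO and 12.67 and 12.73 in DKOhet hearts, against 13.10, 13.10 and 12.88 in hetDKO and 12.78, 12.95, 12.86 and 13.03 in control hearts. The groups overlapped, with hetDKO 3, control 1 and control 3 below the highest Rbpj-deleted array, DKO 2. Mad2l1, whose protein MAD2 holds CDC20 inactive, differed by -0.24 (SE 0.08, interval -0.42 to -0.07, adjusted p = 0.0388). That call was lost on leaving out any 1 of 9 arrays (KO 3, DKO 3, DKOhet 1, DKOhet 2, hetDKO 1, hetDKO 2, control 2, control 3 or control 4), with adjusted p from 0.0547 to 0.0912. Bub1b differed by -0.16 (interval -0.33 to 0.01) and Ttk, the kinase MPS1, by 0.26 (interval -0.14 to 0.67), and neither passed.

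The only measured centromere gene and all 6 kinesin and midzone genes missed the threshold. Cenpa read 14.72, 14.59 and 14.82 in KO, 14.84, 14.85, 14.76 and 14.85 in DKO and 14.64 and 14.79 in DKOhet hearts, against 14.88, 15.02 and 14.93 in hetDKO and 14.88, 14.87, 14.91 and 14.68 in control hearts. Apart from control 4, every Rbpj-present array was above every Rbpj-deleted array. Cenpa, the histone H3 variant of centromeres, differed by -0.14 (SE 0.07, interval -0.28 to 0.00, adjusted p = 0.142), and was called lower with median scaling in place of quantile normalization (-0.23, adjusted p = 0.0327). Nusap1 read 12.60, 12.86 and 12.60 in KO, 12.60, 12.75, 12.88 and 12.90 in DKO and 12.72 and 12.79 in DKOhet hearts, against 12.70, 12.86 and 12.65 in hetDKO and 12.54, 12.47, 12.33 and 12.54 in control hearts. All control arrays lay below all Rbpj-deleted arrays, and the hetDKO arrays lay among the Rbpj-deleted ones. Nusap1, which bundles spindle microtubules, differed by 0.14 (SE 0.08, interval -0.02 to 0.30, adjusted p = 0.2) with its brightest probe and by -0.40 (adjusted p = 0.0506) and -0.03 with the others, so its sign depended on the probe. The motor and bundling genes Kif11, Kif18b, Kif23, Kif2c and Prc1 lay between -0.12 and -0.03, with interval ends from -0.31 to 0.13.

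Top2a, the topoisomerase that untangles sister chromatids, was the only member called higher. Top2a read 13.50, 13.39 and 13.53 in KO, 13.46, 13.36, 13.45 and 13.39 in DKO and 13.46 and 13.53 in DKOhet hearts, against 13.09, 13.07 and 13.16 in hetDKO and 13.19, 13.30, 13.29 and 13.55 in control hearts. The hetDKO arrays were the lowest, and control 4 was the highest of all 16 arrays. Its difference was 0.24 (SE 0.07, interval 0.10 to 0.39, adjusted p = 0.0168), and 0.12 (adjusted p = 0.239) with median scaling, where the call was lost. Against the control hearts alone, the differences were 0.15 in KO, 0.08 in DKO and 0.16 in DKOhet hearts, none called, and -0.22 (interval -0.44 to -0.01, adjusted p = 0.998) in hetDKO hearts.

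Cdkn1c was the only CDK inhibitor of the list that was measured. Cdkn1c read 14.15, 14.54 and 14.52 in KO, 14.31, 14.31, 14.52 and 14.26 in DKO and 14.48 and 14.21 in DKOhet hearts, against 14.66, 14.84 and 15.03 in hetDKO and 14.79, 14.76, 14.88 and 14.74 in control hearts. All Rbpj-deleted arrays lay below all Rbpj-present arrays, by a gap between KO 2 at 14.54 and hetDKO 1 at 14.66. The difference was -0.45 (SE 0.09, interval -0.63 to -0.27, adjusted p = 0.00184), a 1.37-fold lower signal. Thus a gene that restrains the cycle fell together with genes that drive it. Such a lack of overlap, every Rbpj-deleted array lower, held for the brightest probes of Ccne2, Bub3 and Cdkn1c, 3 of 31 members, and for 3.03% of all probes. It held for 1 other member probe too, of Cdc20, whose highest Rbpj-deleted array read 11.39 and lowest Rbpj-present array 11.43. Every Rbpj-deleted array higher was found for 0 members' probes and 3.12% of all probes.

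**Figure D3:**
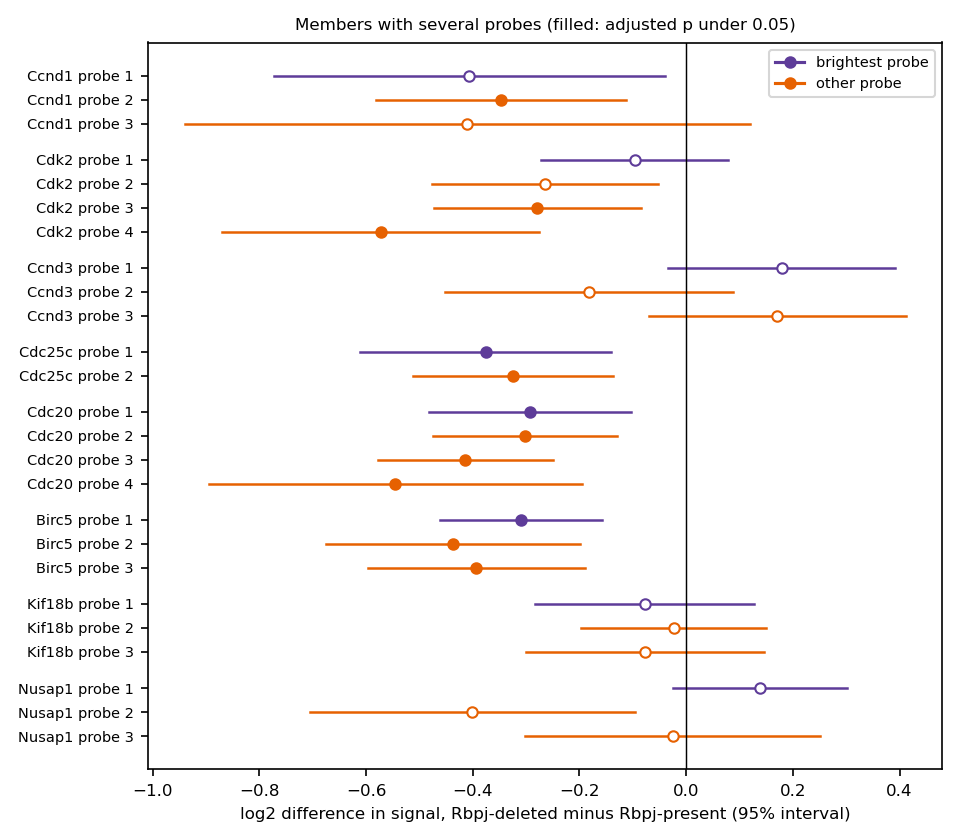
Log2 difference in signal between Rbpj-deleted and Rbpj-present hearts (x axis, points with 95% intervals) for each probe of the genes with several probes of measurable level, with filled points for adjusted p under 0.05. All probes of Cdc20, Birc5, Cdc25c, Ccnd1 and Cdk2 lie left of 0, and probes of Ccnd3 and Nusap1 lie on both sides.

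Set against control one genotype at a time, few members passed, and the 3 comparisons share the 4 control arrays. In KO hearts 2 members were lower and 0 higher, with 3.97% of all probes lower, 3.61% higher and 7.58% called in either direction. These were Ccne2 at -0.96 (SE 0.21, adjusted p = 0.0152) and Bub3 at -0.58 (SE 0.14, adjusted p = 0.0282). They are 6.45% of the members, a share near the background, and the count was 1 without KO 1, KO 3, control 1, control 2 or control 3. In DKO hearts 4 members were lower, Ccne2 at -0.88 (adjusted p = 0.0104), Ccne1 at -0.76 (adjusted p = 0.0489), Bub3 at -0.59 (adjusted p = 0.0118) and Cdkn1c at -0.44 (adjusted p = 0.0262), which is 12.9% of the members, with 6.51% of all probes lower, 6.68% higher and 13.2% called. The count was 2 without DKO 4, control 1 or control 3. With the replicate number as a block, Nusap1 was called too, higher in DKO hearts by 0.32 (adjusted p = 0.0484, against 0.0596 without the block).

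In DKOhet hearts 4 members were lower, Bub3 at -0.94 (SE 0.16, adjusted p = 0.0044), Ccne2 at -0.86 (adjusted p = 0.0402), Cdc25a at -0.62 (adjusted p = 0.0476) and Birc5 at -0.43 (adjusted p = 0.0388) (12.9% of the members), with 4.32% of all probes lower, 4.3% higher and 8.61% called. Under median scaling the share of called probes that were higher went to 35.5%, against 49.9% with quantile normalization, and 7 members were called. With 2 DKOhet arrays the count was sensitive to single arrays. It was 1 without DKOhet 1, DKOhet 2, hetDKO 3, control 1, control 2 or control 3, it was 2 without DKO 1, DKO 2, hetDKO 1 or hetDKO 2, and it was 7 without control 4. By their brightest probes, Ccne2 and Bub3 were called in all 3 comparisons.

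Other probes of 3 members were called against control as well. One further Cdc20 probe was lower in all 3 comparisons, at -0.63 in KO (adjusted p = 0.0049), -0.58 in DKO (adjusted p = 0.00311) and -0.50 in DKOhet hearts (adjusted p = 0.0283), where the brightest Cdc20 probe was not called. Another Cdc20 probe was lower in KO hearts, at -0.86 (adjusted p = 0.0438). One Cdk2 probe was lower in KO hearts, at -0.78 (adjusted p = 0.0348), and in DKO hearts, at -0.64 (adjusted p = 0.0391). For Birc5, 1 other probe was lower in DKO hearts, at -0.52 (adjusted p = 0.019), and the other in DKOhet hearts, at -0.69 (adjusted p = 0.0361).

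The loss of Rbpj where Axin2 was absent, DKO against hetDKO hearts, gave 3 lower members: Ccne2 at -0.89 (SE 0.21, adjusted p = 0.0195), Bub3 at -0.53 (SE 0.14, adjusted p = 0.0366) and Cdkn1c at -0.49 (SE 0.13, adjusted p = 0.031). That is 9.68% of the members, and of all probes 3.78% were lower, 4.08% higher and 7.86% called. The count was 0 without hetDKO 3, it was 1 without DKO 1, DKO 3, DKO 4, hetDKO 1 or hetDKO 2, and it was 5 without control 4, which enters through the shared estimate of spread. This comparison shares no array with KO against control. Their differences had the same sign in 21 of 31 members, 18 of them below 0 in both, against 71.0% of all probes, and across the 31 members the 2 sets of differences had Pearson's r of 0.68 and Spearman's rho of 0.58 (r 0.58 across all probes). Genes are not independent replicates, and these values describe the arrays. The 2 effects of Rbpj loss were set against each other directly for the 14 members described by array, and 0 of the 14 passed (adjusted p from 0.955 to 0.997, limma). At an unadjusted p under 0.05, 1 of the 31 members differed, Ube2c, beside 709 of 14058 probes. Its difference was -0.74 (interval -1.29 to -0.20), with DKO below hetDKO hearts by 0.54 and KO above control hearts by 0.21. The hetDKO hearts carry a floxed Rbpj copy, so this is not an exact cross of 2 full genotypes.

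**Figure D4:**
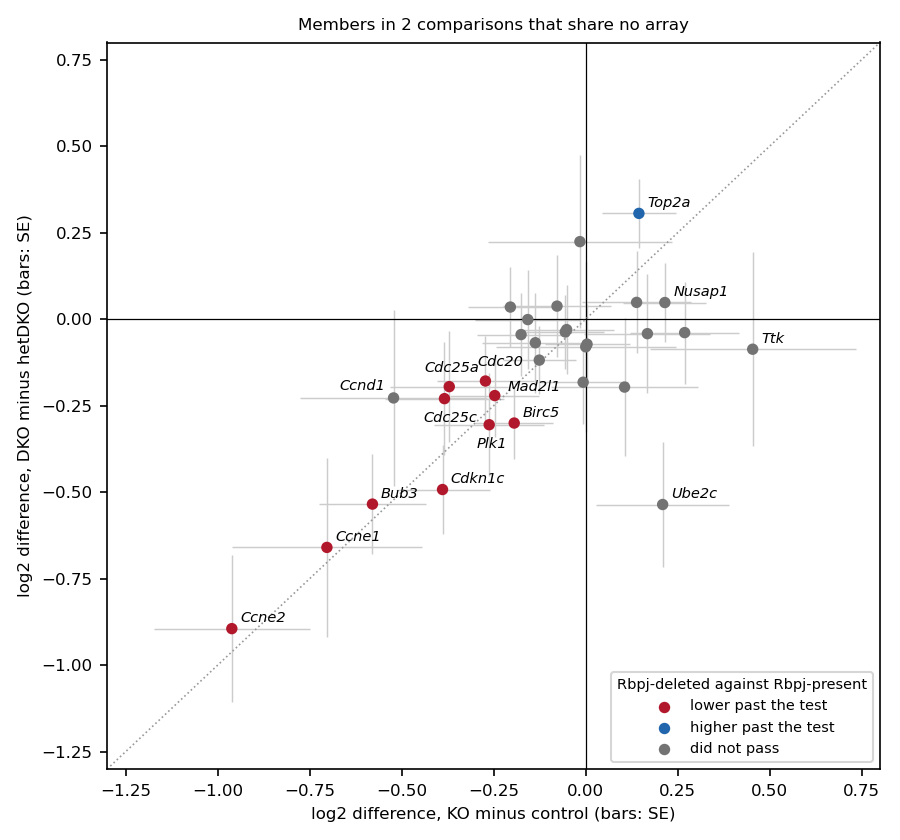
Log2 difference of each of the 31 members in KO against control hearts (x axis) and in DKO against hetDKO hearts (y axis), with bars of 1 SE and a dotted line of equal differences. Ccne2, Ccne1, Bub3 and Cdkn1c lie far to the lower left near the line, and Ube2c lies apart, above 0 on the x axis and at -0.54 on the y axis.

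The comparisons between hearts that differ in Axin2 but not in the Rbpj-deleted or Rbpj-present side gave no called member. The hetDKO hearts differ from control in Axin2, in 1 floxed Rbpj copy and possibly in the Cre. These cannot be told apart there. In hetDKO against control hearts 0 of 31 members and 0% of all probes passed with limma. At an unadjusted p under 0.05 the members were 3, Tpx2 at 0.34 (interval 0.02 to 0.65), Nusap1 at 0.27 (0.03 to 0.51) and Top2a at -0.22, beside 545 of 14058 probes. Ccne2 differed by 0.01 (interval -0.44 to 0.46) and Bub3 by -0.05 (interval -0.36 to 0.26) between these hearts. The interval reached a median of 0.31 log2 units either side of the estimate over the members. In DKO against KO hearts 0 of 31 members passed, beside 0.0142% of all probes. Ube2c was the only member at an unadjusted p under 0.05, at -0.50 (interval -0.88 to -0.12), beside 706 of 14058 probes. In DKO against DKOhet hearts 0 members and 0% of probes passed. At an unadjusted p under 0.05 there was 1 member, Bub3, beside 551 of 14058 probes. All 3 counts stayed at 0 under every alternative that could be run for them.

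Averaged over the 31 members after centring each on its mean, the 9 Rbpj-deleted arrays lay between -0.16 and 0.01 and the 7 Rbpj-present arrays between 0.04 and 0.13 log2 units. The same mean over all 14058 probes, between -0.01 and 0.00 in both, is held near 0 by quantile normalization and so is no comparison. The 31 members include the 11 called between these same arrays. KO 3 was the lowest array and KO 2 and DKO 2 the highest among the Rbpj-deleted ones, and hetDKO 2 was the highest of all.

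**Figure D5:**
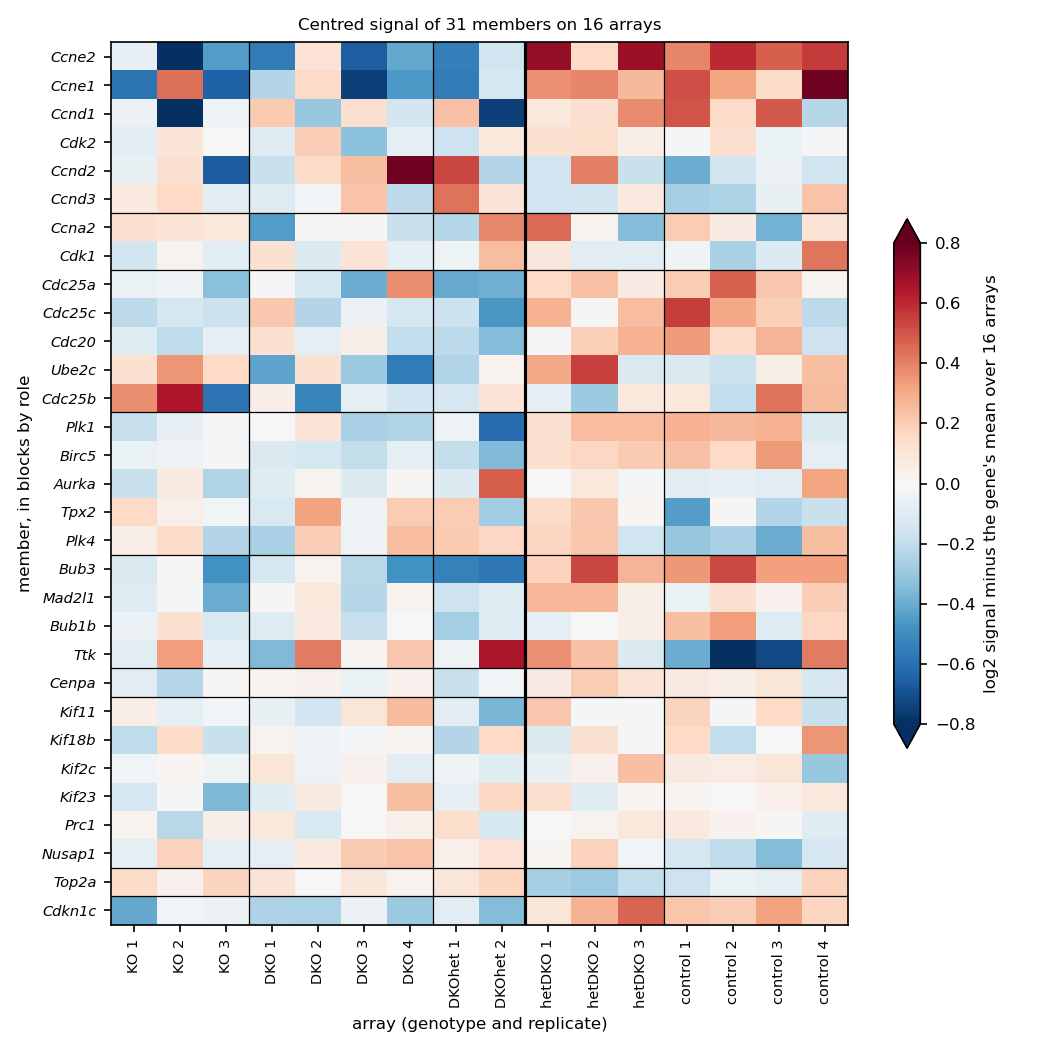
Log2 signal of each member minus its mean over the 16 arrays (colour, limits at 0.8 in either direction), with members in blocks by role down the page and arrays by genotype across it, a thick line dividing Rbpj-deleted from Rbpj-present hearts. The Cdkn1c row changes colour at that line, and the kinesin and midzone rows do not. In the Ccne2 and Bub3 rows every Rbpj-deleted array is below every Rbpj-present array. In the Ccne1 row KO 2 and DKO 2 reach into the Rbpj-present range.

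Other genes of the cell cycle, outside the 43, are given here by lists. Of 51 measured genes of mitosis, 18 were lower, 4 higher and 29 not called in Rbpj-deleted against Rbpj-present hearts, with a median of -0.14. The centromere protein gene Cenpm was at -0.54 (adjusted p = 0.000238, both other probes lower too), the kinase gene Melk at -0.74 (adjusted p = 0.00044) and Shcbp1 at -0.55 (adjusted p = 0.00421), and the other probes of Melk and Shcbp1 were below 0 but not called. Hjurp, the chaperone of CENP-A, went the other way, at 0.58 (adjusted p = 0.00574), with its other probe at 0.39 and not called. In the anaphase-promoting complex, 6 of 13 subunits and partners were lower and 0 higher, with a median of -0.06. Those with the smallest p were Anapc15 at -0.40 (adjusted p = 0.0127, other probe at 0.09 and not called), Anapc4 at -0.30 (adjusted p = 0.0164), Anapc2 at -0.52 (adjusted p = 0.0248) and Cdc27 at -0.33 (adjusted p = 0.0324). Each share stands beside 14.3% lower and 12.2% higher over all probes.

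Among the brakes on the cycle outside the list, 3 of 16 were higher and 0 lower, with a median of 0.02. That is 18.75% higher, beside 12.2% higher and 14.3% lower over all probes. Ccng2, the unconventional cyclin G2 that is raised in cells leaving the cycle, was at 1.27 (SE 0.15, interval 0.95 to 1.59, adjusted p = 5.67e-05), a 2.41-fold higher signal. Btg1, an antiproliferative gene, was at 0.40 (adjusted p = 0.00067), and of its other probes 1 was called higher at 0.44 and 1 was not, at 0.14. Cdkn1a, the gene of p21, was at 0.38 (adjusted p = 0.0339), with other probes at 0.33 and 0.23 and not called. Rb1, the retinoblastoma gene, missed the threshold at 0.38 (adjusted p = 0.0609), while its other probe was called higher at 0.50 (adjusted p = 0.0123).

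Of 17 G1 to S regulators, 4 were lower and 2 higher, with a median of -0.06. These are 23.5% lower and 11.8% higher, and over all probes 14.3% were lower and 12.2% higher. Tfdp1, the E2F partner DP1, was at -0.34 (adjusted p = 0.00294) and Cdc37, a chaperone partner of kinases that include CDK4, at -0.39 (adjusted p = 0.01). Myc was higher at 0.37 (adjusted p = 0.00275), as was the replication licensing factor Cdt1 at 0.36 (adjusted p = 0.00786). Of 25 DNA replication genes, 10 were lower and 0 higher, with a median of -0.20, led by Rrm2, a subunit of ribonucleotide reductase, at -0.72 (adjusted p = 0.000514, other probe also lower), Fen1 at -0.51 (adjusted p = 0.00178), Mcm5 at -0.33 (adjusted p = 0.00285) and Gins3 at -0.35 (adjusted p = 0.00384).

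Markers of the cell types in these hearts were read beside the cell cycle genes. Their counts stand beside 14.3% lower and 12.2% higher over all probes in Rbpj-deleted against Rbpj-present hearts. The 1 cardiomyocyte and the 1 erythroid call, each 11.1% of 9 markers, are near those shares. All 9 measured cardiomyocyte markers were above background on all arrays, so the labelled tissue carried its defining genes, and 1, Nppa, was higher and 8 did not pass. The mean log2 level of the cardiomyocyte markers ran from 11.13 to 12.60 in Rbpj-deleted and from 11.52 to 12.74 in Rbpj-present hearts. Of 6 epicardial markers, 3 were higher (Krt19, Wt1 and Upk3b) and 0 lower, and their mean level ran from 8.87 to 10.02 in Rbpj-deleted and from 8.31 to 9.17 in Rbpj-present hearts, with Tbx18 above background on 8 of 16 arrays. Of 7 endothelial and endocardial markers 2 were higher (Flt1 and Pecam1) and 1 lower (Nfatc1), with mean levels of 9.28 to 10.02 in Rbpj-deleted and 9.24 to 9.76 in Rbpj-present hearts. Erythroid markers ran from 11.61 to 13.58 in Rbpj-deleted and from 12.06 to 13.28 in Rbpj-present hearts, with 1 of 9 lower (Klf1), and with that level as a covariate 10 members were called in place of 11. With the same covariate 2 members in place of 4 were called in DKO against control, 1 in place of 4 in DKOhet against control and 1 in place of 3 in DKO against hetDKO hearts. The endoderm and liver markers (4 measured, 0 called) and neural markers (3 measured, Dbx1 lower) were above background on all arrays for 2 and 1 genes. Of 4 pharyngeal and cushion mesenchyme markers, all above background on all arrays, Pdgfra was higher and Prrx1 lower, with mean levels of 10.99 to 11.49 in Rbpj-deleted and 11.13 to 11.41 in Rbpj-present hearts. The part of these cell types in the cell cycle differences, beyond the erythroid covariate, was not tested.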

How the data were processed

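Total RNA of whole embryonic hearts was hybridised, as biotin-labelled cRNA, to 16 arrays of Illumina mouse beadchips, per the labels' protocols. The deposited non-normalized table holds a linear intensity and a detection p-value for each of 25696 probes and each array. A second deposited table holds the authors' normalized intensity for 14788 probes, with the same median on every array (594.4 to 594.5), and correlates with the first at 0.9998 or more on the log2 scale. BeadStudio is named in the submitters' processing notes. Its settings are not stated there.

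Intensities were corrected with normexp, fitted from the detection p-values (nec of limma 3.58.1 in R 4.3.3, offset 16), then taken to log2 and quantile normalized. The offset makes differences of dim probes smaller than the true ones. Probes with detection p under 0.05 on at least 2 arrays were kept (14058), and 2 rows with no probe name were left out. Names came from the platform annotation, updated through RefSeq gene IDs: 13928 probes had 1 symbol, 0 had several and 11768 had none here, and 13238 kept probes were named (94.2%).

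The 5 group means were estimated together from the 16 arrays in limma (lmFit and eBayes, 11 residual degrees of freedom, two-sided), with Benjamini-Hochberg adjustment over all kept probes and 95% intervals. Rbpj-deleted against Rbpj-present weights each genotype equally. Genes described by array are those called in any comparison plus the member with the smallest p in each role, and up to 4 genes are named from each other list. The members and lists were chosen with earlier results of these data known. The fit was tested on simulated data with independent noise on every array. The share of small differences recovered there is not given here. Among the real arrays, same-numbered ones deviated together, with every pair's correlation over 0.1, in DKO against control (0.175 to 0.312) and DKO against KO (0.127 to 0.241) alone. The replicate block is therefore given beside those. Outside DKOhet, arrays numbered 1 and 3 lay on beadchip 1 and those numbered 2 and 4 on beadchip 2. Same-numbered arrays there thus share a beadchip, and its part in these correlations was not tested. The alternatives were other background corrections, normalizations, filters, the authors' table, beadchip and replicate blocks, array weights, an erythroid covariate and leaving out each array. No set test was run. The number of arrays limits the precision.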

Additional observations from a re-analysis of the deposited data

Results flagged for a closer look

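Single arrays stood apart from their group in 3 of the 28 group checks made on the 14 members described by array, and chance alone flags about 1 in 20 such checks. Cenpa read 14.757 on DKO 3, below the other DKO arrays at 14.835 to 14.848. Plk1 read 12.555 on control 4, below the other control arrays at 12.93 to 12.952. Bub3 read 10.599 on control 2, above the other control arrays at 10.405 to 10.419. For 0 of the 14 members did a difference in the effect of Rbpj loss between hearts without and with Axin2 pass the test. The interval of that difference reached a median of 0.44 log2 units either side of the estimate over the 31 members. Ube2c, the only member at an unadjusted p under 0.05 (limma), beside 709 of 14058 probes, was not among the 14.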

How the results depend on the processing

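No direction among the called members reversed under any alternative. The 11 members called in Rbpj-deleted against Rbpj-present hearts became 5 within beadchip 1, 0 within beadchip 2 and 7 without both DKOhet arrays, and ranged from 7 to 11 on leaving out 1 array; these alternatives use fewer arrays. Under all other settings the count was 10 to 13, and with the replicate block it was 12. In KO against control (2 members) it was 0 within either beadchip, 4 with the replicate block and 6 with array weights, and 1 to 3 on leaving out 1 array. In DKO against control (4) it was 1 within beadchip 1, 0 within beadchip 2, 9 with array weights and 2 with the erythroid covariate, and 2 to 5 on leaving out 1 array. In DKOhet against control (4) it was 7 with median scaling, 2 with no filter on dim probes, 0 within beadchip 2, 7 with the replicate block (where Ccne2 lost its call, adjusted p = 0.0626, and Ccne1, Cdc25c, Cdc20 and Plk1 gained one) and 1 with the erythroid covariate, and 1 to 7 on leaving out 1 array. In DKO against hetDKO (3) it was 1 within beadchip 1, 0 within beadchip 2, 5 with array weights and 1 with the erythroid covariate, and 0 to 5 on leaving out 1 array. The cause was not tested where an alternative kept all arrays and probes. Same-numbered arrays of KO or DKOhet and control did not all deviate together, so the block is given here alone. In the 2 comparisons whose same-numbered arrays deviated together, the block changed no call except that of Nusap1 given above. Ccne2, Ccne1, Bub3 and Birc5 lost their calls within beadchip 2 alone, at -0.82, -0.49, -0.74 and -0.24, and Cdkn1c within beadchip 1 (-0.47, adjusted p = 0.0531) and beadchip 2 (-0.40). DKOhet has no arrays on beadchip 1, so no value within it exists for its comparisons.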
